A study of Mus musculus with 50 samples.

Results

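Tumours of IL6Myc mice were divided by how many private single-nucleotide variants (SNVs) they carried in Igk, the locus of the antibody kappa light chain. A private SNV is one that was called in 1 tumour and in no other. Of 44 tumours, 14 carried 5 or more private Igk SNVs and form the high group, and 30 carried 4 or fewer and form the low group. The groups were chosen by the number of Igk SNVs, so all values from Igk are a description without a test. The question was whether tumours with many Igk SNVs also differed elsewhere, in the other antibody loci, in genes known as targets of the same mutator, or in the number and kind of private SNVs. Of 17 such comparisons, 16 could be made over all tumours, and none of these passed after adjustment. The remaining one, the read share of Igh SNVs, had too few high tumours to pass.

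All tumours came from the mesenteric lymph node of IL6Myc transgenic mice, each tumour from a separate mouse, and the labels give the cells as malignant plasma cells. IL6Myc mice carry interleukin 6, a growth factor of plasma cells, and the oncogene Myc as transgenes. The labels name no promoter, age or treatment, and both groups share this genotype and tissue. Genomic DNA was captured with an exon design of 50 Mb and sequenced as exomes. The labels list 45 tumours and 5 kidneys of wild-type Balb/c mice, and neither tumour 4 nor any kidney was analysed here. An inherited variant carried by a single mouse therefore cannot be told apart from a somatic one.

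Plasma cells descend from B cells, which assemble each antibody chain from variable (V), joining (J) and, in the heavy chain, diversity (D) segments. In germinal centres the enzyme AID deaminates cytosines in the rearranged V segment and in the stretch downstream of it, and error-prone repair spreads changes to neighbouring bases, a process called somatic hypermutation. AID also reaches a limited set of other genes, among them Myc, Pim1 and linker histone genes.

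In each tumour the deposited table gives the read share of an SNV, the percent of reads over a site that show the changed base. The table held 20289 SNVs, of which 9903 were private. Read depth is unknown, so a missing call can be an unmutated site or a poorly covered one, and read shares are printed without intervals. Tumours carried 62 to 1409 private SNVs elsewhere, meaning outside the 3 antibody loci, Myc, the linker histones, Pim1 and the other listed AID targets. The titles fall into 3 runs of numbers, and the number of private SNVs elsewhere moved with them. The median in high and low tumours was 888 and 551 for titles 1199 to 1293, 208 and 238 for titles 1501 to 1592, and 121 and 115 for titles 1601 to 1628. The labels do not say what these runs mean. They hold 2 high and 2 low, 7 high and 11 low, and 5 high and 17 low tumours, in that order.

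The 44 tumours carried 177 private SNVs in the Igk locus (mm10, chr6:67555636-70726754), 116 in high and 61 in low tumours. Tumour 41 had the most, with 12. Tumours 14 and 19 had 10 each, tumours 2, 15, 22 and 37 had 9, tumours 17 and 18 had 8, tumours 3, 27 and 36 had 7, tumour 23 had 6 and tumour 45 had 5. Just below the threshold lay 6 tumours with 4 SNVs each, tumours 1, 11, 20, 29, 30 and 32. The counts formed no gap at the threshold, since 1 tumour had 5, 1 had 6 and 3 had 7. No private Igk SNV was called in 6 tumours.

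**Figure D1:**
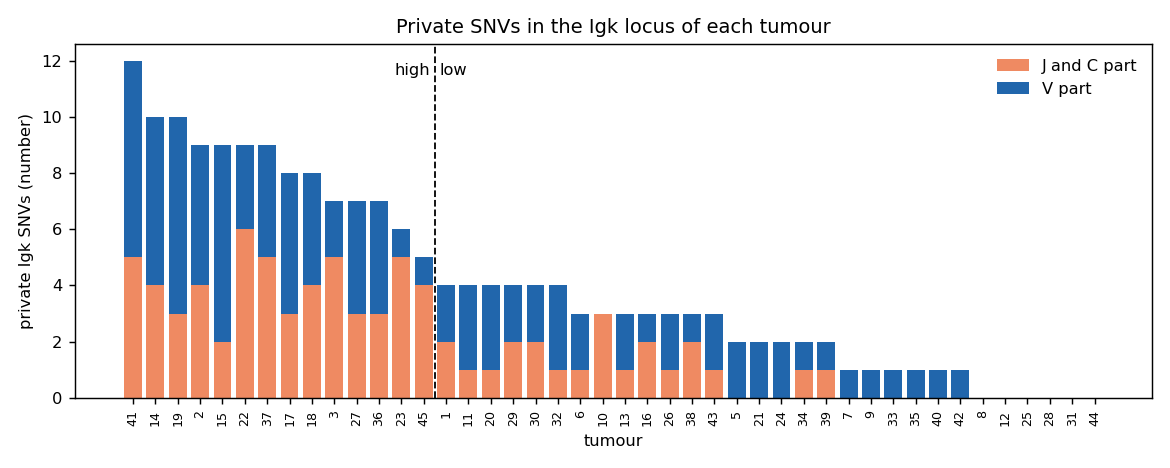
Private SNVs in the Igk locus (number) of each of 44 tumours, ordered by the total and split into the V part and the J and C part. The dashed line separates the 14 high tumours, which carry 5 to 12, from the 30 low tumours, which carry 0 to 4.

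The SNVs lay among the V segments and around the J segments. Of the 177, 99 lay among the V segments, 74 around the J segments and 4 in Igkc, which encodes the constant region. The 74 J-segment SNVs fell within 1539 bases, from 14 bases before the start of Igkj1 to 1524 bases after it. Only 7 of them lay inside a J segment and 67 lay before, between or after the segments. High tumours carried 60 V, 54 J and 2 Igkc SNVs, and low tumours 39, 20 and 2. All 14 high tumours had SNVs in both parts. Of the low tumours, 23 had one in the V part and 15 in the J and C part.

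The 5 Igk segments with private SNVs in the most tumours were the J segments. SNVs nearest to Igkj3 were called in 16 tumours, 9 of them high, with read shares from 3.37% to 66.04%. Igkj5 followed with 14 tumours, 9 of them high, Igkj4 with 11, Igkj2 with 9 and Igkj1 with 8. The V segments were more scattered: 44 of them were hit. Igkv1-110 and Igkv1-135 were each hit in 4 tumours. V segments were assigned by position, and they belong to families of near-identical copies, so the assignment of a V SNV to its segment is uncertain. Whether reads of another copy gave some of the V calls, which count toward the Igk load, was not tested. With high defined as 3 or more SNVs in the J and C part, 14 tumours were high, 13 of them high by the whole locus, and 0 of the 17 comparisons passed (permutation tests, 1 with an unadjusted p below 0.05); this grouping was chosen after seeing the data.

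**Figure D2:**
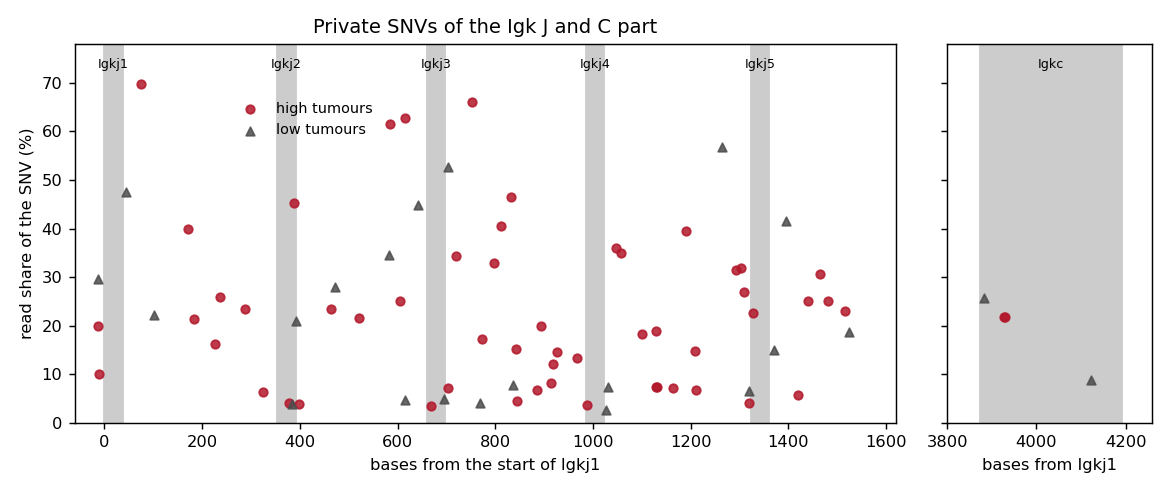
Read share (%) of every private SNV in the J and C part of Igk against its distance in bases from the start of Igkj1, for high (circles) and low (triangles) tumours. Grey bars are the J segments and, in the right panel, Igkc; most SNVs lie between the bars.

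Several high tumours carried a run of SNVs in a single V segment. In tumour 19, 4 SNVs in Igkv3-5 spanned 341 bases and had read shares from 40.54% to 41.55%. In tumour 18, 4 SNVs in Igkv3-10 spanned 271 bases at 21.1% to 28.68%. The 3 SNVs of Igkv15-103 in tumour 14 lay at 25% to 29.17%, whereas the 3 SNVs of Igkv13-85 in tumour 15 lay at 3.8% to 5.21%. In these 4 tumours the SNVs of the segment lay close together in read share, but this did not hold throughout. The 3 SNVs of Igkv14-111 in tumour 37 ran from 10.39% to 33.33%, and the 3 of Igkv10-96 in low tumour 20 from 7.04% to 22.61%. At least 3 SNVs in 1 V segment were found in 5 high tumours and in 1 low tumour, tumour 20. The grouping allows low tumours at most 4 Igk SNVs, which leaves little room for such runs, so this count is not a comparison of groups.

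Read shares of Igk SNVs covered a wide range. The median was 14.9% over the 116 SNVs of high tumours and 8.75% over the 61 of low tumours. J and C SNVs had a median of 21.2% and V SNVs one of 8.7%. Within each part the groups lay closer: 9.6% in high and 8.27% in low tumours for V SNVs, and 21.5% and 19.9% for J and C SNVs. J SNVs made up 46.6% of the Igk SNVs of high tumours and 32.8% of those of low tumours. In high tumours 45 SNVs lay under 10% and 48 at 20% or more. All 8 SNVs of tumour 17 lay under 10%, while all 6 of tumour 23 lay between 29.56% and 46.51%. The high group therefore joined tumours whose Igk SNVs were in few reads with tumours whose Igk SNVs were in many.

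**Figure D3:**
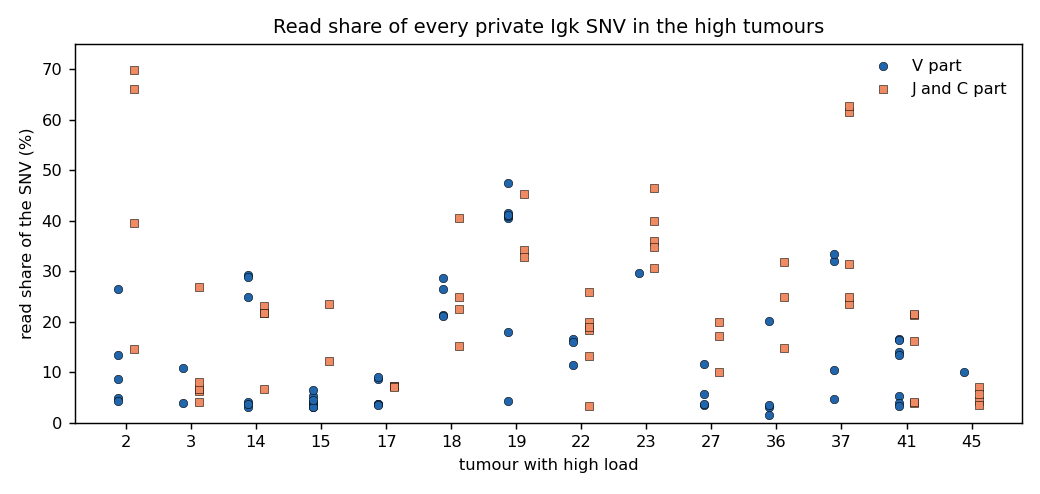
Read share (%) of every private Igk SNV in the 14 high tumours, with V SNVs as circles and J and C SNVs as squares. Tumour 17 lies wholly under 10%, tumour 23 wholly above 29%, and 10 of the 14 tumours have SNVs both under 10% and at 20% or more.

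The bases changed around the J segments were unequal. Read on the strand that codes for the antibody, 36 of 78 J and C SNVs in Igk changed an A, 22 a G, 10 a C and 10 a T. More A than T changes were found in 17 tumours and more T than A in 2. Around the Igh J segments, which no rule of grouping used, 16 of 26 SNVs changed an A and 1 changed a T. In the J and C part of Igl, A and T changes numbered 7 each. The base composition of these stretches was not available, so the counts are not rates.

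Private SNVs in Igh, the heavy chain locus (chr12:113258768-116009954), did not differ between high and low tumours by more than their spread. High tumours had 0 to 3, with a median of 1, and low tumours had 0 to 4, with a median of 1, so the groups overlapped throughout. The mean was 1 ± 0.961 (SD, n = 14) in high and 1.13 ± 1.31 (SD, n = 30) in low tumours. The difference, high minus low, was -0.133, with a 95% interval from -0.933 to 0.667 (permutation p = 0.791, adjusted p = 0.877 over 17 comparisons). At least 1 Igh SNV was called in 9 of 14 high and 17 of 30 low tumours. The interval excludes a mean gain of 1 Igh SNV per high tumour.

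The Igh SNVs, too, gathered at the J segments. Of 48 Igh SNVs, 26 lay around the J segments, within 1320 bases, in 3 high and 11 low tumours. Ighj3 was the segment nearest to SNVs in the most tumours, 3 high and 6 low, followed by Ighj2 with 2 high and 4 low. Ighd2-4, Ighj1 and Ighj4 followed with 3 tumours each. A median Igh read share could be set in 1 high and 6 low tumours with 3 or more Igh SNVs, which is too few for a comparison of groups, since the exact permutation p could not fall below 0.143.

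Igl, the lambda light chain locus (chr16:19026858-19260844), gave 22 SNVs in 8 high tumours and 36 in 14 low tumours. The number ranged from 0 to 5 in high tumours, with a median of 1.5, and from 0 to 9 in low tumours, with a median of 0. Both groups held tumours without any, and the highest value was in low tumour 34. The means were 1.57 ± 1.70 (SD, n = 14) and 1.20 ± 2.11 (SD, n = 30), a difference of 0.371 with an interval from -0.909 to 1.66 (permutation p = 0.582, adjusted p = 0.877). SNVs in both Igh and Igl were found in 7 of 14 high and 10 of 30 low tumours.

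**Figure D4:**
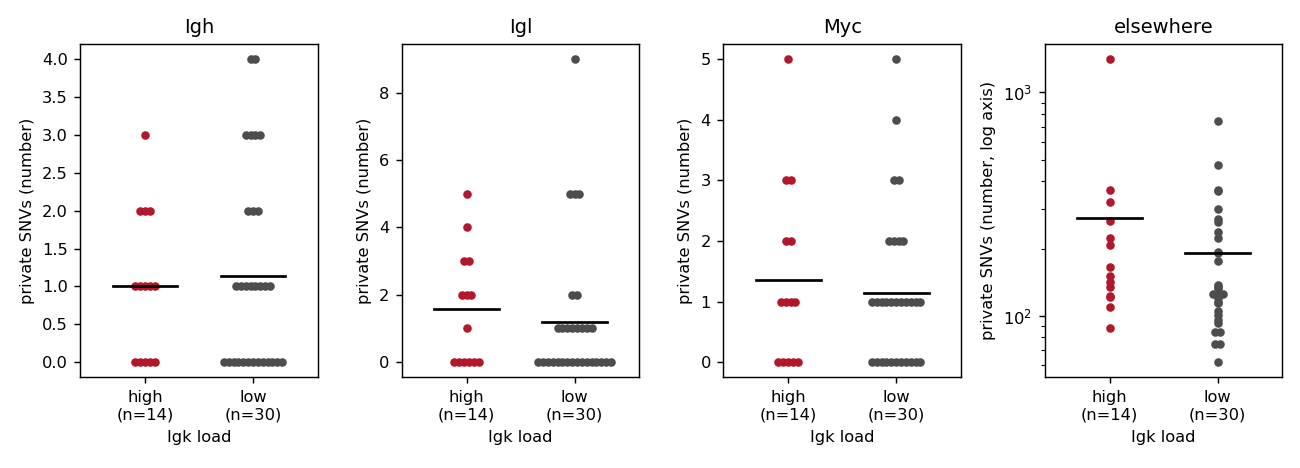
Private SNVs (number) in Igh, Igl, Myc and elsewhere in each of 14 high and 30 low tumours; each point is a tumour, the bar is the mean, and the axis of the last panel is logarithmic. The groups overlap in all panels.

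Myc, the transcription factor that the model also carries as a transgene, held private SNVs in 9 of 14 high and 19 of 30 low tumours. The high tumours had 0 to 5 (median 1) and the low tumours 0 to 5 (median 1), and the groups overlapped fully. The means were 1.36 ± 1.5 (SD, n = 14) and 1.13 ± 1.28 (SD, n = 30), and the difference was 0.224 with an interval from -0.636 to 1.11 (permutation p = 0.634, adjusted p = 0.877). Whether a read came from the transgene or from the mouse's own gene cannot be told from the table. The effects of the SNVs were counted as well. All 9 high tumours with a Myc SNV had a missense one, 11 SNVs in all, and 9 low tumours had 12. This split was chosen after the values were seen, and with missense SNVs alone the difference was 0.386 (permutation p = 0.105, adjusted p = 0.714). Tumour 19 had the most Myc SNVs of the high group, 3 in the 5′ untranslated region at 22.58% to 30.26%, and the missense changes p.Gln49His at 40.86% and p.Asp102Asn at 17.81%. Tumour 37 had p.Ser155Ala at 31.48%, beside a synonymous SNV at 33.33%.

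Linker histones, which bind DNA between nucleosomes, had 6 private SNVs in 4 high tumours and 9 in 5 low tumours. The means were 0.429 ± 0.756 (SD, n = 14) and 0.300 ± 0.794 (SD, n = 30), with a difference of 0.129 and an interval from -0.375 to 0.625 (permutation p = 0.687, adjusted p = 0.877). Hist1h1c was hit in 2 high and 3 low tumours and Hist1h1d in 2 high and 2 low. The highest read share was that of p.Lys169Glu in Hist1h1e of tumour 2, at 53.33%. Pim1, a kinase that supports survival of B cells, had 4 SNVs in 3 high tumours and 6 in 4 low tumours. Its difference was 0.0857, with an interval from -0.286 to 0.444 (permutation p = 0.779, adjusted p = 0.877). In high tumours these were p.His68Tyr at 26.92% and a synonymous SNV at 26.42% in tumour 2, a 5′ untranslated SNV at 30% in tumour 36 and an intronic one at 4.69% in tumour 15.

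A list of 30 other genes known as AID targets gave 15 private SNVs in 10 genes. They lay in 5 of 14 high and 6 of 30 low tumours, with a difference of 0.233 and an interval from -0.191 to 0.667 (permutation p = 0.322, adjusted p = 0.816). No gene of this list was hit in more than 2 tumours. Cd83, a surface protein of activated B cells, had 2 SNVs in tumour 17 at 7.14% and 12% and 1 in low tumour 42 at 9.3%. Socs1, an inhibitor of cytokine signalling, had 1 SNV in tumour 19 at 36.36% and 1 in low tumour 16 at 10.53%. Long genes, which collect mutations by size, served as a second list. High tumours had 4.50 ± 7.29 SNVs in them (SD, n = 14) and low tumours 2.37 ± 1.79 (SD, n = 30), with a median of 2 and 2.5 (permutation p = 0.128, adjusted p = 0.816). Ttn was the gene of this list hit in the most tumours, 4 high and 9 low.

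Of 36 genes of DNA repair and antibody diversification, 6 held a private protein-altering SNV, in 3 high and 4 low tumours. In high tumours these were 2 changes in Trp53bp1, a protein of break repair, in tumour 2 at 51.67% and 40.74%, and changes in the mismatch repair gene Msh6 in tumour 3 at 40.58% and tumour 19 at 6.25%. In low tumours they included single changes in Brca2, Brca1 and Polq, all under 10%. Tumour 2 also had synonymous and intronic SNVs in Trp53bp1, at 27.27% to 53.85%. Its 1409 private SNVs elsewhere had a median read share of 45.45%. Whether the Trp53bp1 changes of tumour 2 were inherited or somatic cannot be told here.

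The number of private SNVs elsewhere did not pass either. High tumours had 88 to 1409, with a median of 158, and low tumours 62 to 741, with a median of 129. The difference in mean was 83.3 with an interval from -50.6 to 222 (permutation p = 0.269, adjusted p = 0.816), and it was -4.11 without tumour 2, which had 1409. Private SNVs also lay in dense runs. In 5 tumours, 20 windows of 5 Mb with 20 or more private SNVs of 1 tumour held 1885 private SNVs. Without these windows, a setting chosen after seeing the data, the difference was 24.7 (permutation p = 0.369, adjusted p = 0.896). Elsewhere, the counts, classes and read shares given here include these runs SNV by SNV. SNVs called in 2 or more tumours averaged 2699 and 2644 per tumour (permutation p = 0.873, adjusted p = 0.877). The median read share of private SNVs elsewhere averaged 17.9% ± 8.60 (SD, n = 14) and 17.1% ± 7.11 (SD, n = 30), with an interval of the difference from -3.89 to 5.52 percentage points.

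Among the 6 substitution classes, T>C made up 26.4% ± 5.45 (SD, n = 14) of the private SNVs elsewhere in high tumours and 22.2% ± 5.73 (SD, n = 30) in low tumours. The difference was 4.25 percentage points, with an interval from 0.542 to 7.92. It was the 1 comparison of 17 with an unadjusted p below 0.05 (permutation p = 0.0242) and did not pass after adjustment (adjusted p = 0.412). Of the high tumours, 11 of 14 lay above the median of the low group, and the ranges overlapped. Within titles 1501 to 1592 the difference was 6.83 (exact permutation p = 0.052) and within titles 1601 to 1628 it was 2.84 (exact permutation p = 0.183). Titles 1501 to 1592 were uneven in C>A share. High tumours 14 and 15 and low tumours 6 to 13 and 16 had C>A of 22.8% to 39.92%. Their T>C was 15.85% and 16.59% in the high and 7.14% to 28.57% in the low tumours. High tumours 17, 18, 19, 22 and 23 had C>A of 8.05% to 15.67% and T>C of 28% to 32.62%. Low tumours 20 and 21 had C>A of 19.3% and 8.57% and T>C of 16.67% and 25.71%. Whether T>C moved with C>A was not tested. In the 4 tumours of titles 1199 to 1293 the means ran the other way, 29% in high and 31.4% in low tumours. The C>A share was 14.8% ± 8.83 (SD, n = 14) against 18.1% ± 9.32 (SD, n = 30), with an interval of the difference from -9.19 to 2.60 (permutation p = 0.268, adjusted p = 0.816). The other 4 classes had unadjusted permutation p from 0.336 to 0.877.

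Genes and genome windows were then scanned for carriers among high and low tumours with Fisher's exact test. Of 110 genes outside Igk with a private SNV in 4 or more tumours, 0 passed after Benjamini-Hochberg adjustment (0%), and 2 had an unadjusted p below 0.05 (1.82%). These were 4932438A13Rik, with SNVs in 5 high and 2 low tumours, and Cntnap5b, a neuronal adhesion gene, in 4 high and 1 low. The next were Sfi1 in 4 high and 2 low tumours, 9830001H06Rik in 5 high and 4 low, which Flg2 equalled, and Csmd3, Fam83d, Ltn1, Gm13247, Gm21119 and 1700095A21Rik, each in 3 high and 1 low. Of 628 windows of 1 Mb, 0 passed (0%) and 14 had an unadjusted p below 0.05 (2.23%), of which 12 were hit more often in high tumours (1.91%). The smallest Fisher's exact p that 4 carriers can give is 0.00737, with 4 high and 0 low. A single gene or window with 4 carriers could therefore not pass, and 0 passed does not show equal groups. With 0 high carriers, 4 low gave 0.29 and 5 low gave 0.161. With 4 or 5 carriers, an unadjusted p below 0.05 thus needs most carriers to be high. The direction of the 14 windows and of the named genes is therefore not read as a lean to high tumours.

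The Igk count was also set against other counts without the threshold. Over 44 tumours the correlation of private Igk and Igh SNVs was r = 0.0578 (permutation p = 0.725) and rho = 0.164 (permutation p = 0.283). That of Igk SNVs and private SNVs elsewhere was r = 0.218 (permutation p = 0.152) and rho = 0.273 (permutation p = 0.0737). Without tumours 41 and 14, the farthest from the median Igk count, r was 0.0888 and 0.275. Neither of these 2 relations passed.

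Of the alternative settings listed for these correlations, 1 gave another call. Counting SNVs with a read share of 20% or more, Igk and Igh numbers correlated with r = 0.52 over 44 tumours. After this value was seen, the relation of Igk with Igh, Igl, Myc and elsewhere was computed at no minimum, at 10% and at 20%, which makes 12 relations, and p-values were adjusted over all 12. From 20%, Igk with Igh gave r = 0.52 (permutation p = 0.00139, adjusted p = 0.00876) and rho = 0.582 (adjusted p = 0.0006), and r = 0.485 without tumours 19 and 18. Igk with Myc gave r = 0.517 (permutation p = 0.00146, adjusted p = 0.00876) and rho = 0.473 (adjusted p = 0.00828), and r = 0.452 without those tumours. For Igl r was 0.208 (adjusted p = 0.215). At a minimum of 10% no r passed after adjustment, with 0.209 for Igh, 0.229 for Igl, 0.323 for Myc and 0.251 for elsewhere. By rank, 3 of these 4 relations passed: rho was 0.379 for Igl (adjusted permutation p = 0.034), 0.35 for Myc (adjusted p = 0.0412) and 0.37 for elsewhere (adjusted p = 0.034), and 0.324 for Igh (adjusted p = 0.0565).

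Many tumours had no SNV of 20% in either locus: for Igk and Igh, 21 of 44 were at 0 for both. Among the 22 tumours with an Igk SNV of 20% or more, r was 0.313 for Igh (permutation p = 0.155, adjusted p = 0.619) and 0.502 for Myc (permutation p = 0.0174, adjusted p = 0.208), and neither passed. Private SNVs elsewhere moved in the same direction at this minimum (r = 0.246, adjusted p = 0.215; rho = 0.455, adjusted p = 0.00892), and their part in the result was not tested. Within titles 1501 to 1592 r for Igh was 0.573 (n = 18, unadjusted permutation p = 0.0146) and within titles 1601 to 1628 it was 0.54 (n = 22, unadjusted permutation p = 0.0415). For elsewhere, r in these runs was 0.339 (unadjusted permutation p = 0.162) and 0.48 (unadjusted permutation p = 0.0206). Within titles 1601 to 1628 only tumours 30, 36, 37 and 45 had an Igh SNV of 20% or more. Between the groups, Igh SNVs from 20% were called in 6 of 14 high and 5 of 30 low tumours, and the difference in mean number, 0.381, did not pass (permutation p = 0.215, adjusted p = 0.605).

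**Figure D5:**
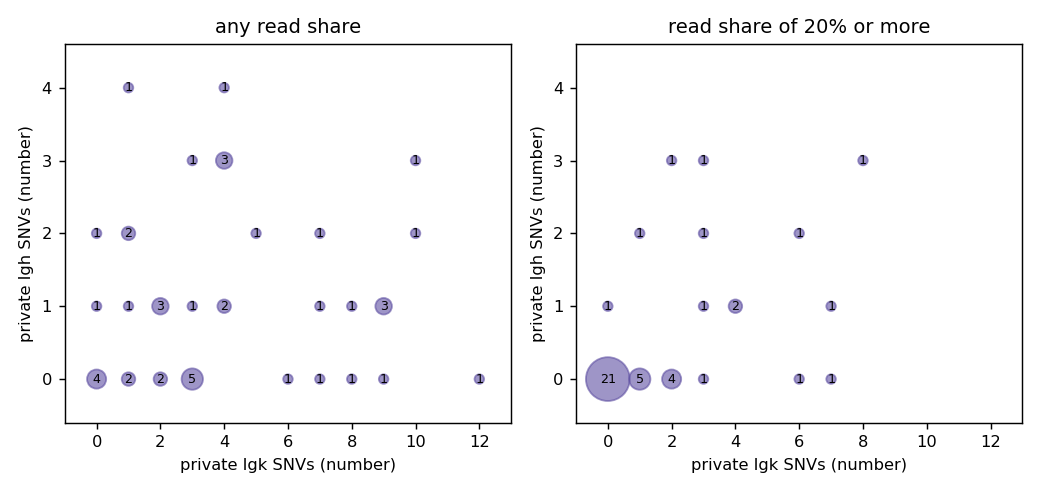
Private Igh SNVs against private Igk SNVs (number) over 44 tumours, at any read share (left) and at a read share of 20% or more (right). The area of a point and the digit in it give the number of tumours; at 20%, 21 tumours lie at 0 for both.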

How the data were processed

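The authors deposited 1 annotated variant table; variants were called with GATK on mm10, per the submitters' processing notes, and DNA was captured with a 50 Mb exon kit, per the labels. For aligner, filters and versions: not given in the sources used here. Each deposited cell is a percent of reads with the alternate base, and a deposited column counts the tumours with the variant. Of the rows, 199 with several alleles were left out and 25624 were used. Antibody segments came from RefSeq (GRCm38.p6). Tumours were compared by permutation of the difference in mean (100000 resamples, exact where a group had under 10 tumours), with Benjamini-Hochberg adjustment over 17 comparisons and a threshold of 0.05. Intervals of 95% come from inverting that test with 10000 resamples. Scans used Fisher's exact test for genes and 1 Mb windows with 4 or more carriers. The tests were tested on simulated data. Named genes are the 5 segments of Igk and of Igh with most carriers, listed genes by carriers, the 10 smallest p of the gene scan, and repair genes with a protein-altering SNV; others are examples chosen after their values were seen. Some items that the rule names are not reported here. The groups, lists and members were chosen with earlier results of these data known. Alternatives covered the threshold, read share, title runs, dense windows, ranks and each tumour left out. Python 3.11.15, numpy 2.4.6, pandas 2.3.3 and scipy 1.17.1 were used.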

Additional observations from a re-analysis of the deposited data

Results flagged for a closer look

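Some calls in the antibody loci lay outside the private SNVs that were compared. The Igk locus held 5 private insertions or deletions, in 3 high and 2 low tumours. The longest was a deletion of 15 bases at Igkj2 in tumour 15, at a read share of 9.52%, and the highest read share was 45.75%, at Igkv4-70 in tumour 19. In Igh, 14 SNVs were called in 2 or more tumours, of which 9 were in 2 to 5 tumours and 5 in more. In Igl, 4 SNVs were each called in 2 tumours. With no kidney values analysed here, these are given as values only.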

How the results depend on the processing

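No paired analysis was possible because replicate numbers follow accession order and the groups were set from the calls. Across 261 alternatives of the 17 group comparisons none was called; 222 kept the direction, 38 reversed it and 1, Igh by the Igk share of private SNVs, was 0. Differences below are high minus low. High from 3 Igk SNVs gave Igh 0.34 and C>A 1.74; from 8, long genes -0.756. Of those that kept their direction, high from 8 raised Myc to 1 (exact permutation p = 0.0479, adjusted p = 0.407) and other AID targets to 0.549 (exact permutation p = 0.0308, adjusted p = 0.407), and high from 3 lowered T>C to 0.301 (permutation p = 0.872). Grouping by the Igk share of private SNVs gave Igl -0.455, Myc -0.0455, Pim1 -0.182, elsewhere -123, shared -450, C>G 0.446, C>T 1.89 and read share elsewhere -3.08. From a read share of 10%, Igh was 0.129, linker histones -0.0143 and C>T 0.227; from 20%, Igh 0.381, linker histones -0.0905 and read share elsewhere -1.41. With SNVs in 1 or 2 tumours, read share elsewhere was -0.293. Without titles 1199 to 1293, Pim1 was -0.0476, shared -7.12 and read share elsewhere -0.279. Within titles 1601 to 1628, Igh was 0.259, Igl -0.0353, Myc -0.176, shared -156, C>G 0.0215 and read share elsewhere -1.29. Within titles 1501 to 1592, Pim1 was -0.221, long genes -0.558, elsewhere -42.4, shared -428, C>T 2.73 and T>A 0.372. Mean ranks gave Igh 0.105 and C>G 0.629, and Myc per 100 SNVs elsewhere was -0.0741. Of the groupings chosen after seeing the data, 5 Igk SNVs of 10% read share gave C>T 0.521 and 3 in the J and C part gave C>G 0.0899. The causes were not tested.

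Leaving out each of 44 tumours gave no call (smallest adjusted permutation p 0.139, T>C without tumour 14). Differences ranged from -0.0564 (without tumour 19) to 0.357 for Myc, -0.0462 (without 2) to 0.148 for Pim1, -4.11 (without 2) to 102 elsewhere, -62 (without 15) to 147 for shared SNVs, -0.406 to 0.153 (without 23) for C>G and -1.34 (without 2) to 1.73 for read share elsewhere. Among the listed settings the r of Igk and Igh passed only from 20% read share (r 0.52). With no minimum read share, within titles 1501 to 1592 it was -0.0343, and Igk with elsewhere -0.112. Depth is unknown, so missed calls cannot be counted.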

Other observations

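Of the 6 tumours without a private Igk SNV, none had a private Myc SNV. Over all 44 tumours, 28 had one, so tumours with Igk SNVs lacked it too. Private SNVs elsewhere numbered 62 to 101 in tumours 25, 28, 31 and 44, and 224 and 270 in tumours 8 and 12. Depth is unknown, so a missing call need not be an unmutated site. Tumour 31 had 2 Igh SNVs and 1 Igl SNV, tumour 8 had 1 Igh SNV, tumour 12 had 1 Igl SNV, and tumours 25, 28 and 44 had none in either locus. This set was picked out after its values were seen and was not tested.

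Pairs of Igk SNVs at adjacent bases with equal read shares were called in 4 tumours: tumour 5 at Igkv6-13 (41.76%), tumour 14 at Igkc (21.74%), tumour 17 at Igkj4 (7.27%) and tumour 20 at Igkv10-96 (22.61%). Each pair counts as 2 SNVs in the Igk load.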
